A study of Mus musculus with 4 samples.

Results

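The 10 genes described here encode apolipoproteins, the protein components of the lipid particles that the liver releases into plasma. They were taken by symbol from the 13903 genes of the deposited expression table: Apoa1, Apoa2, Apoa4, Apoa5, Apob, Apoc1, Apoc3, Apoe, Apoh and Apom. All 10 were found, and all 10 were among the 8963 genes that averaged 10 CPM or more (reads scaled to a library total of 1000000 on the listed genes) and were compared between libraries. The study sequenced mRNA from whole mouse liver after a CDE diet, one that lacks choline and contains ethionine and thereby injures hepatocytes, and asked how loss of O-GlcNAc transferase (OGT) bears on the liver at the end of the diet and after recovery from it. Every mouse carried OGT-floxed alleles on the C57BL/6J background and ate the CDE diet, so no library of a liver without the diet was analysed here. The control groups received the virus AAV8-TBG-eGFP and the groups labelled OGT-KO received AAV8-TBG-CRE. The thyroxine-binding globulin (TBG) promoter is active in hepatocytes, so the other liver cells keep the floxed gene. Collection was at the end of the diet (no recovery) or 7 days later, which gave 4 groups, and each group is 1 library in which the RNA of 3 mice was pooled equally.

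Apolipoproteins hold lipoprotein particles together and tell enzymes and receptors what to do with them. APOB is the scaffold of very low density lipoprotein (VLDL), APOA1 and APOA2 are the main proteins of high density lipoprotein (HDL), the small C apolipoproteins and APOA5 set how fast triglyceride is removed from particles, and APOE is the ligand through which remnants are taken up by the liver. Hepatocytes make most of these proteins, while APOE is also made by macrophages and by several other cell types, and APOA4 in mammals comes largely from the small intestine.

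The libraries held 19972699 to 22866431 reads on the listed genes. One read was worth 0.0437 to 0.0501 CPM, and the smallest level the depth can show, taken as 3 reads, was 0.131 to 0.150 CPM. With 1 library per group there was no spread between replicates and no test of the conditions. A gene was called at a 2-fold difference, written as a difference of log2(CPM + 1), and ratios are given with exact 95% intervals that cover counting error only. Ogt, the targeted gene, was measured at 64.7 CPM in the library labelled control and 55.3 CPM in the OGT-KO-labelled library with no recovery, and at 55.7 and 77.7 CPM after 7 days, so after 7 days its level went against the label on the deposited scale (log2 differences of -0.22 and 0.47, and -0.93 and -0.20 after the median-ratio scaling described next). The deposited table scales every library to the same total, and the median of all 8963 genes lay at 0.51 with no recovery and 0.48 after 7 days on the OGT-KO minus control log2 scale. Median-ratio scaling, which centres the libraries on the ratio of the typical gene, moved these medians to -0.19 and -0.18. Of 8 hepatocyte markers, 7 were in the table, and their summed level was 74582 and 85572 CPM in the control libraries against 63151 and 73621 CPM in those labelled OGT-KO. On the deposited scale the sums of the other markers differed more. The 8 macrophage markers summed to 120 to 325 CPM in the control libraries and 965 to 1286 CPM in those labelled OGT-KO. In the same order, 8 stellate cell markers summed to 162 to 243 and 2958 to 3540 CPM. The 6 duct cell markers summed to 53.9 to 69.9 and 1157 to 1469 CPM, and 6 endothelial markers to 125 to 176 and 231 to 317 CPM. The duct cell sum is mostly Spp1 (41.0 and 52.1 CPM in the control libraries, 977 and 1245 CPM in the others). Under median-ratio scaling the compared hepatocyte markers had median log2 differences of -1.31 and -1.13 and the endothelial markers 0.26 and 0.10. The medians there were 1.25 and 2.18 for macrophage, 1.68 and 2.58 for stellate cell and 3.05 and 3.45 for duct cell markers. Of 6 lymphocyte markers, 3 were in the table, and they summed to 1.10 to 4.81 CPM over the 4 libraries. None of the markers in the table was at 0 in any library. In whole tissue, fewer cells of a type and less RNA per cell cannot be told apart.

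The apolipoproteins did not differ as one block between the labels. The HDL proteins Apoa1, Apoa2 and Apom and the phospholipid-binding plasma protein Apoh were lower in the OGT-KO-labelled libraries at both times, Apoa4 was higher at both times, and Apoa5, Apob, Apoc1, Apoc3 and Apoe stayed inside the 2-fold limits. With no recovery, 4 of 10 genes were called lower, where 5.69% of the 8963 compared genes were called lower, and 1 was called higher, where 24.4% of all compared genes were. After 7 days the same 5 genes were called in the same directions, 4 lower beside a background of 4.27% and 1 higher beside 22.9%. Among genes averaging 50 CPM or more, a set that holds all 10 genes, 10.9% were lower and 16.3% higher with no recovery. The shares in that set were 8.73% lower and 15.6% higher after 7 days. The 10 genes had median log2 differences of -0.62 (no recovery) and -0.54 (7 days), and 9 of 10 genes lay below the median of all compared genes at both times. Under median-ratio scaling the medians were -1.34 and -1.23, with 9 of 10 genes below 0 at both times and Apoa4 above it. That scaling added Apoc1 at both times and Apob with no recovery to the genes called lower, 6 and 5 in all, beside all-gene backgrounds of 15.4% and 11.8% lower and 10.4% and 11.6% higher. Scaling by the hepatocyte markers gave 4 and 3 genes lower and 1 higher, beside 3.68% and 1.95% lower and 44.8% and 48.9% higher. With no recovery the log2 differences of the 10 genes ranged from -2.76 to 3.28 (SD over genes 1.65, against 1.15 over all compared genes). After 7 days they ranged from -1.97 to 2.48 (SD 1.26 against 1.12). Between the times the SD over all compared genes was smaller, 0.29 in the control libraries and 0.33 in those labelled OGT-KO. How many compared genes had both libraries of one label above both of the other was not counted. Such separation therefore cannot be called particular to these 10 genes.

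**Figure D1:**
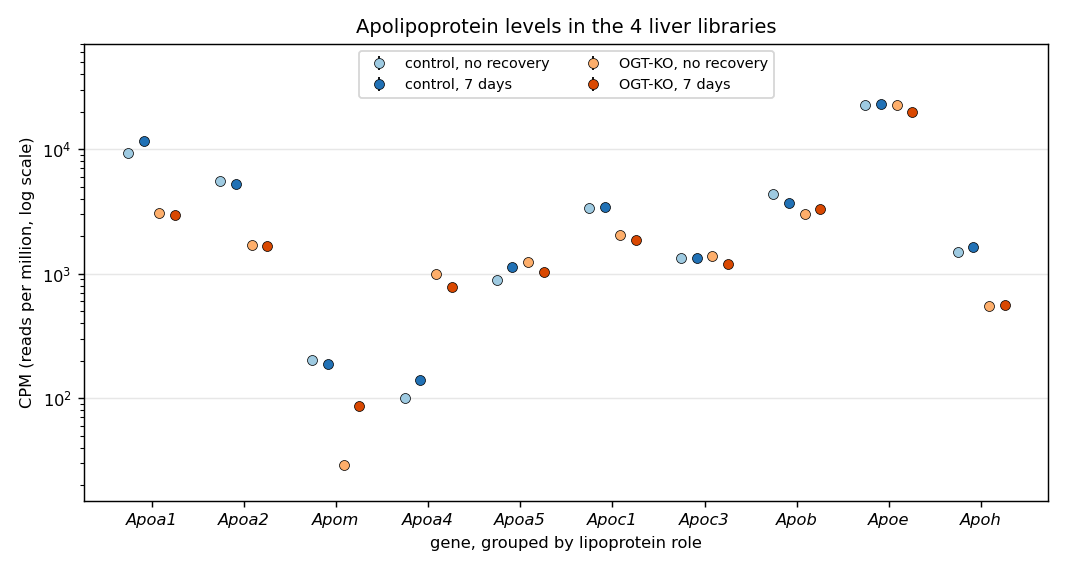
CPM of each apolipoprotein gene (log axis) in the 4 libraries, 1 point per library, with exact 95% counting intervals that are mostly smaller than the points. Both orange points lie below both blue points for Apoa1, Apoa2, Apom, Apoc1, Apob and Apoh and above them for Apoa4. The share of all compared genes that separate in this way was not counted. Apoe stays between 19998 and 23272 CPM.

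**Figure D2:**
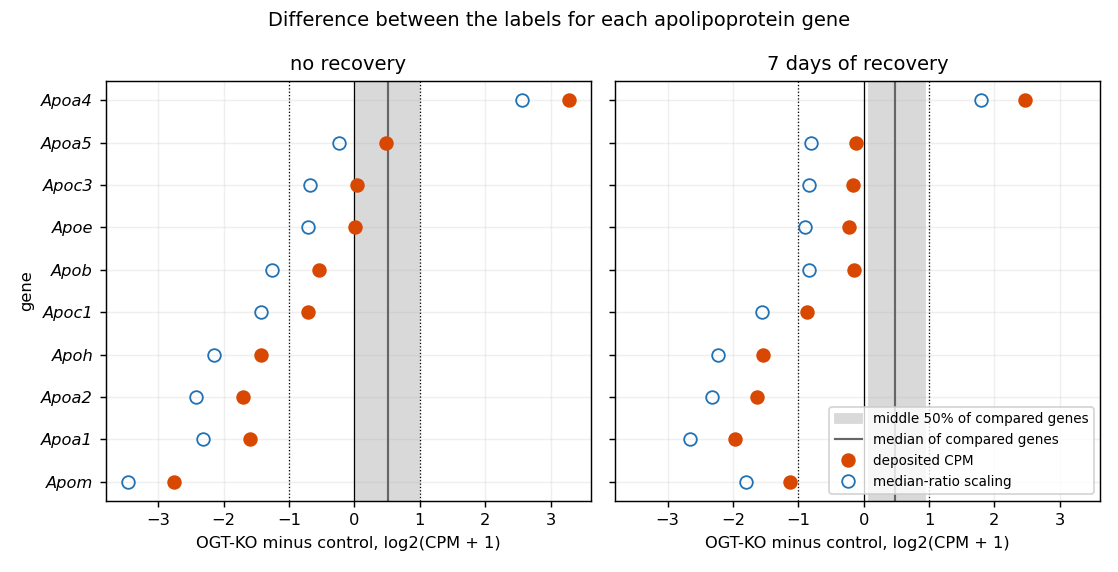
OGT-KO minus control difference in log2(CPM + 1) for each gene with no recovery (left) and after 7 days (right), on the deposited scale (filled) and after median-ratio scaling (open). The grey band and line give the middle 50% and the median of the compared genes on the deposited scale, the dotted lines mark 2-fold, and 9 of 10 genes lie left of the median in both panels.

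The promoter windows of the 5 called genes are shown because Apoa4 and the other 4 genes differed in opposite directions between the labels. The windows are RefSeq sequence of GRCm38.p6, from 250 bases before to 50 bases after an annotated start, written 5′ to 3′ on the gene's strand. The submitters' processing notes name GRCm39, so these coordinates and those of the GENCODE M21 annotation (GRCm38) describe the genes and were not joined to the deposited values by position. Capitals mark the matches to 4 motifs searched on both strands: CAAAGTNCA (a form of the HNF4A motif), AGGTCA (the nuclear receptor half-site), GTTAAT (the half-site of HNF1 factors) and TATAAA (the TATA box).
Apoa4: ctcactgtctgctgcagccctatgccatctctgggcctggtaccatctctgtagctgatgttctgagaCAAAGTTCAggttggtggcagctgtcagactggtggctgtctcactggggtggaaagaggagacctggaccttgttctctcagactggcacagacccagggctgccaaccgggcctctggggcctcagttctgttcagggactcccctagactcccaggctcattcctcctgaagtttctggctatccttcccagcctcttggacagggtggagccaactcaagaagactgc
Apoa1: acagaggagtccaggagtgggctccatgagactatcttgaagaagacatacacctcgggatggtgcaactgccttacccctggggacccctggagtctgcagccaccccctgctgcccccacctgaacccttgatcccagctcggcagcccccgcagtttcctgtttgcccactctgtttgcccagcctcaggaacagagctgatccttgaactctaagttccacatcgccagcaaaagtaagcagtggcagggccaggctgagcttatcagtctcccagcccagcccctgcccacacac
Apoa2: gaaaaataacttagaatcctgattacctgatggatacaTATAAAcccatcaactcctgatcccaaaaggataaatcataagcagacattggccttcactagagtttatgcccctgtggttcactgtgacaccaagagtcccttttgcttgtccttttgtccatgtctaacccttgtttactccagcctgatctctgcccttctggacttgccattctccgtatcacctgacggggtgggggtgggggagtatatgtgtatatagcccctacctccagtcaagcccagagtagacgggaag
Apoh: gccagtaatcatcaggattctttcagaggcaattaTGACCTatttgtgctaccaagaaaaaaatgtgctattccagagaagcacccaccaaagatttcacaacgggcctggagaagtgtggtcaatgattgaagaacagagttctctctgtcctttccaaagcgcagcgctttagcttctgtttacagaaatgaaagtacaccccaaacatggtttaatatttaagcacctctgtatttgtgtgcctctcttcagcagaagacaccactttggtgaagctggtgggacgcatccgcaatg
Apom: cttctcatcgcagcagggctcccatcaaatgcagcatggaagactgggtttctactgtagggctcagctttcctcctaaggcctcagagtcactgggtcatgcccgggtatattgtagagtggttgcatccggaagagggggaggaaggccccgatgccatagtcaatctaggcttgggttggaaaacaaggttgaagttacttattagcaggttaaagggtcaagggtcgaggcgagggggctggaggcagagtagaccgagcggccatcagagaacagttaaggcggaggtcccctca
The Apoa4 window (chr9:46240594-46240893, plus strand) was the only one of the 8 genes with a window to hold CAAAGTNCA, as CAAAGTTCA with its first base at -182, and 1.41% of all 32851 windows hold that motif. The Apoh window (chr11:108395047-108395346, plus strand, with a start inside the longer GENCODE model) holds AGGTCA in reverse at -215, as does a second Apoa2 window, and 16.3% of all windows hold it. The Apoa2 window shown (chr1:171224804-171225103, plus strand) holds TATAAA at -212, a motif in 13.6% of all windows, which the windows of Apoa5, Apob and Apoe hold as well. The windows of Apoa1 (chr9:46228380-46228679, plus strand) and Apom (chr17:35131752-35132051, minus strand) held no match to the 4 motifs. The RefSeq starts of the Apoa4, Apoa1 and Apom windows also lie inside the longer GENCODE models, and motif positions are counted from the RefSeq starts. Nearly all of the Apom window lies inside its GENCODE model, so the bases before that model were scarcely searched. GTTAAT was found in 1 window of Apoe and in 7.10% of all windows. A match is a description of these letters and not a binding site. Only these exact strings were searched, so a window without a match can still hold another form of a motif.

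The HDL protein genes Apoa1, Apoa2 and Apom were lower. Apoa1 (ENSMUSG00000032083, chr9:46228580-46230466, plus strand, 4 exons) encodes the protein that accepts cellular cholesterol and activates its esterification. It was measured at 9258 CPM in the control library with no recovery and 11579 CPM after 7 days, against 3050.2 and 2964 CPM in the OGT-KO-labelled libraries. Both control libraries were above both OGT-KO-labelled libraries, by 3.04-fold with no recovery (interval 3.01 to 3.06) and 3.91-fold after 7 days (3.87 to 3.94), log2 differences of -1.60 and -1.97. Apoa1 was the 8th gene by CPM in both control libraries and the 23rd and 27th in those labelled OGT-KO. Apoa2 (ENSMUSG00000005681, chr1:171225054-171226379, plus strand, 4 exons), the second protein of HDL, was measured at 5533 and 5222 CPM in the control libraries and 1698 and 1683 CPM in those labelled OGT-KO. Its control levels were higher by 3.26-fold (3.22 to 3.30) and 3.10-fold (3.07 to 3.14), log2 differences of -1.70 and -1.63. Apoa1 and Apoa2 lie on different chromosomes, and there were 1.67 Apoa1 reads to 1 Apoa2 read in the control library and 1.80 in the OGT-KO-labelled library with no recovery, and 2.22 and 1.76 after 7 days.

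Apom (ENSMUSG00000024391, chr17:35128997-35132050, minus strand, 6 exons) encodes a lipocalin that carries sphingosine-1-phosphate on HDL. The control libraries held 201.8 CPM with no recovery and 188 CPM after 7 days, and the OGT-KO-labelled libraries held 28.9 and 85.8 CPM. Apom thus had the largest fall of the 10 genes with no recovery, 6.98-fold (6.43 to 7.59, log2 difference -2.76), which placed it among the lowest 0.904% of the compared genes, and a smaller one after 7 days, 2.19-fold (2.07 to 2.32, log2 difference -1.12). The 7-day call of Apom is lost when libraries are scaled by the geometric mean of the hepatocyte markers (log2 difference -0.60), and the calls of Apoa1, Apoa2, Apoh and Apoa4 remained under all 4 other scalings. Apoh (ENSMUSG00000000049, chr11:108343354-108414396, plus strand, 8 exons) encodes beta-2-glycoprotein I, which circulates with lipoproteins and binds anionic phospholipid. Its levels were 1493 and 1625 CPM in the control libraries and 555 and 559 CPM in those labelled OGT-KO, 2.69-fold (2.64 to 2.75) and 2.91-fold (2.85 to 2.97) lower. The 5′ end of the Apoh annotation overlaps Prkca on the other strand. Prkca was measured at 9.78 and 7.71 CPM in the control libraries and 39.0 and 37.0 CPM in those labelled OGT-KO, and since the use of strand in counting is not given in the sources used here, reads of overlapping genes cannot be told apart. Beside these 4 genes, the summed hepatocyte markers were lower in the OGT-KO-labelled libraries by 1.18-fold and 1.16-fold, a sum that is mostly Alb (log2 differences -0.21 and -0.080). The median log2 difference of the 7 hepatocyte markers was -0.59 and -0.44. Ttr was at -0.87 and -0.44, Rbp4 at -0.76 and -0.82, Fgb at -0.81 and -1.56 and Serpinc1 at -0.59 and -0.51. Ambp (0.089 and -0.27) was above 0 with no recovery only, and Ahsg (0.25 and 0.0096) at both times. The part of the hepatocyte markers in the differences was not tested.

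Among the A apolipoproteins, only Apoa4 was called higher between the labels. Its gene (ENSMUSG00000032080, chr9:46240696-46243459, plus strand, 3 exons) lies in the same cluster as Apoa1 and encodes a protein of triglyceride-rich particles and HDL whose expression in mouse liver is known to follow fat load. It was measured at 100.3 CPM in the control library with no recovery and 139.5 CPM after 7 days. In the OGT-KO-labelled libraries it was measured at 986 and 781 CPM. Both OGT-KO-labelled libraries were above both control libraries, by 9.83-fold with no recovery (9.40 to 10.3) and 5.59-fold after 7 days (5.37 to 5.82), log2 differences of 3.28 and 2.48. It ranked 1377th and 947th by CPM in the control libraries and 94th and 121st in those labelled OGT-KO, and the differences were above those of 98.0% and 93.7% of the compared genes. The antisense gene models Gm47528 and Gm10680 overlap Apoa4 in the GENCODE M21 annotation and are not among the listed genes, and Gm47544 overlaps Apoa5 in the same way, so antisense reads cannot be told apart here. Apoa4 reads were fewer than Apoa1 reads by 92.3-fold and 83.0-fold in the control libraries and by 3.09-fold and 3.80-fold in the OGT-KO-labelled libraries. Because this ratio is taken within each library, it does not change with the scaling of the libraries.

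Apoa5, Apoc3 and Apoc1, whose products govern triglyceride removal from particles, stayed inside the 2-fold limits on the deposited scale. Apoa5 (ENSMUSG00000032079, chr9:46268633-46271919, plus strand, 4 exons), whose product promotes lipolysis, was measured at 886 and 1131 CPM in the control libraries and 1242 and 1039 CPM in those labelled OGT-KO. The control and OGT-KO levels overlapped, with log2 differences of 0.49 and -0.12, and the sign turned with no recovery under median-ratio scaling (-0.23) and after 7 days under hepatocyte-marker scaling (0.40). Apoc3 (ENSMUSG00000032081, chr9:46232933-46235636, minus strand, 4 exons), whose product inhibits lipoprotein lipase and remnant uptake, was measured at 1335 and 1325 CPM in the control libraries and 1378 and 1189 CPM in those labelled OGT-KO. Its log2 differences were 0.045 and -0.16 on the deposited scale, -0.67 and -0.84 after median-ratio scaling and 0.46 and 0.37 after hepatocyte-marker scaling. Apoc1 (ENSMUSG00000040564, chr7:19689481-19692660, minus strand, 3 exons), which inhibits lipolysis and remnant uptake, stood at 3347 and 3425 CPM in the control libraries and 2049.8 and 1881 CPM in those labelled OGT-KO. Both control libraries were above both others, by 1.63-fold (1.61 to 1.65) and 1.82-fold (1.80 to 1.84), short of the 2-fold limit (log2 differences of -0.71 and -0.86), which it passed under median-ratio scaling (-1.43 and -1.55).

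Apob (ENSMUSG00000020609, chr12:7977648-8016835, plus strand, 29 exons), the structural protein of VLDL, was measured at 4377 and 3685 CPM in the control libraries and 3021 and 3316 CPM in those labelled OGT-KO. The gap between the labels was 1.45-fold (1.43 to 1.46) with no recovery and 1.11-fold (1.10 to 1.12) after 7 days. These are log2 differences of -0.53 and -0.15, and after 7 days the sign turned under hepatocyte-marker scaling (0.37). Apoe (ENSMUSG00000002985, chr7:19696109-19699188, minus strand, 4 exons) was the most abundant of the 10 genes in every library, at rank 2 by CPM of all genes in both control libraries and rank 3 in those labelled OGT-KO. It was measured at 22676 and 23271.5 CPM in the control libraries and 22839 and 19998 CPM in those labelled OGT-KO. The log2 differences of 0.010 and -0.22 averaged -0.10 over the 2 times, the value nearest to 0 after that of Apoc3 (-0.055), and they were -0.71 and -0.90 under median-ratio scaling and 0.43 and 0.31 under hepatocyte-marker scaling. Macrophages, which also make APOE, had summed markers of 325 and 120 CPM in the control libraries and 1286 and 965 CPM in those labelled OGT-KO, and their part in the Apoe level was not tested.

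Levels can be compared between genes only per length of transcript, as CPM per kb of the principal transcript. On that scale the order in the control library with no recovery was Apoe (16105 CPM per kb), Apoa2 (10682), Apoa1 (8945), Apoc1 (6291), Apoc3 (2538), Apoh (1254), Apoa5 (352), Apob (314), Apom (199) and Apoa4 (55.3). After 7 days the control library had the same order except that Apoa1 (11187 CPM per kb) stood above Apoa2 (10081). In the OGT-KO-labelled library with no recovery Apoe (16221 CPM per kb) was followed by Apoc1 (3853), Apoa2 (3277), Apoa1 (2947), Apoc3 (2619), Apoa4 (543), Apoa5 (494), Apoh (466), Apob (217) and Apom (28.5). After 7 days that order differed only in Apoh (470.0 CPM per kb), which stood above Apoa4 (430.1) and Apoa5 (413). Apoe thus led in all 4 libraries, Apoa4 was last in both control libraries and Apom was last in both OGT-KO-labelled libraries. With 1 library per group, neighbours in these orders could not be separated beyond counting error.

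The make-up of the apolipoprotein reads differed between the labels. The 10 genes together took 4.92% of the reads in the control library with no recovery and 5.16% after 7 days, and 3.68% and 3.35% in the OGT-KO-labelled libraries. Without Apoe the shares were 2.65%, 2.83%, 1.40% and 1.35% in the same order, 1.89-fold and 2.10-fold lower in the OGT-KO-labelled libraries. Apoe made up 46.1% and 45.1% of the apolipoprotein reads in the control libraries and 62.0% and 59.7% in those labelled OGT-KO. The share of Apoa1 was 18.8% and 22.4% in the control libraries and 8.28% and 8.85% in the others, while the share of Apoa4 was 0.204% and 0.270% against 2.68% and 2.33%. Read against Apoa1 in the same library, Apob was at 0.473 and 0.318 reads per Apoa1 read in the control libraries and at 0.990 and 1.12 in those labelled OGT-KO. Read against the albumin gene Alb, a general hepatocyte product, Apoa1 was at 0.193 and 0.213 reads per Alb read in the control libraries and 0.0737 and 0.0575 in the others, whereas Apoe was at 0.474 and 0.428 against 0.552 and 0.388. The Apoa1 values did not overlap between the labels and the Apoe values did. How many of all compared genes separate in this way was not counted, so this is a description of these 2 genes only.

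**Figure D3:**
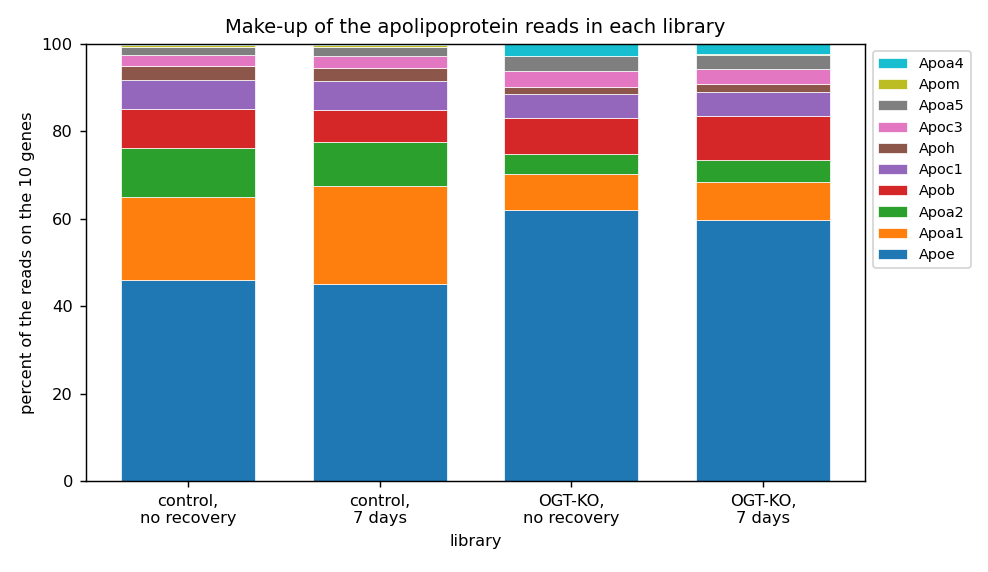
Percent of the reads on the 10 apolipoprotein genes that each gene took, in each of the 4 libraries (stacked bars, adding to 100). The Apoe part is 46.1% and 45.1% in the control libraries and 62.0% and 59.7% in the OGT-KO-labelled libraries, where the parts of Apoa1 and Apoa2 are smaller.

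The genes of the Apoa1 cluster did not share a direction. Apoa1, Apoc3, Apoa4 and Apoa5 lie within 43.3 kb of chromosome 9, with Apoc3 starting 7.06 kb, Apoa4 12.1 kb and Apoa5 40.1 kb from the start of Apoa1. In that order the log2 differences with no recovery were -1.60, 0.045, 3.28 and 0.49, and after 7 days -1.97, -0.16, 2.48 and -0.12. Median-ratio scaling gave -2.32, -0.67, 2.57 and -0.23 with no recovery and -2.65, -0.84, 1.79 and -0.81 after 7 days, with only Apoa4 above 0. The summed CPM of the 4 genes was 1.74-fold and 2.37-fold lower in the OGT-KO-labelled libraries, a sum in which Apoa1 is the main part. Beyond Apoa5, the zinc finger gene Zpr1 starts 44.5 kb from Apoa1 and was higher in the OGT-KO-labelled libraries (61.4 and 51.0 CPM in the control libraries, 169.5 and 122 CPM in the others), with a sign that held under median-ratio scaling (0.74 and 0.57). Farther away on the other side, Tagln, which marks smooth muscle and myofibroblasts, was higher by log2 differences of 3.15 and 2.96. On chromosome 7, Apoe, Apoc1, Apoc4 and Apoc2 lie on the minus strand within 27.6 kb, and Apoc1 starts 6.53 kb from Apoe. The ratio of Apoc1 to Apoe reads was 0.148 and 0.147 in the control libraries and 0.0897 and 0.0941 in those labelled OGT-KO. Apoc4, a minor VLDL protein, was measured at 301 and 286 CPM in the control libraries and 196 and 195 CPM in the others (log2 differences -0.62 and -0.55). Apoc2, the activator of lipoprotein lipase, was listed at only 2.87 to 4.51 CPM and overlaps Apoc4 through the gene model Gm44805 on the same strand, so its level is uncertain. Of the other neighbours, Bcam, a laminin receptor, was higher by log2 differences of 2.80 and 3.29.

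**Figure D4:**
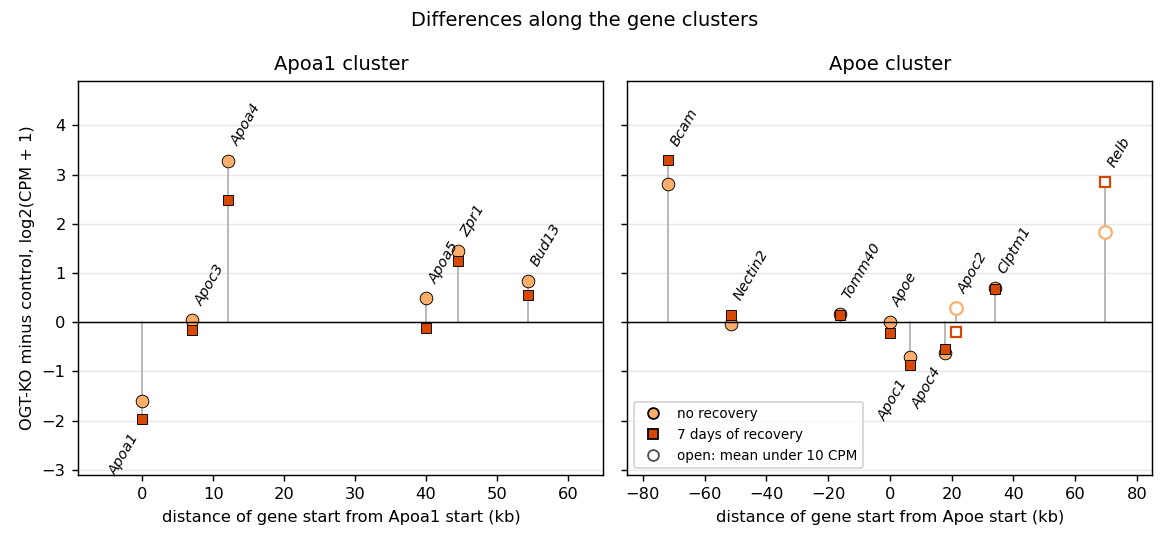
OGT-KO minus control difference in log2(CPM + 1) against the distance of each gene's start from the start of Apoa1 (left) and Apoe (right), in kb along the direction in which that gene is transcribed. Circles are values with no recovery, squares after 7 days and open symbols genes with a mean under 10 CPM. Apoa1 and Apoa4, 12.1 kb apart, lie at opposite ends of the left panel.

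Between the end of the diet and 7 days of recovery the 10 genes stayed inside the 2-fold limits, except Apom in the OGT-KO-labelled libraries. In the control libraries 0 of 10 genes were called higher after 7 days, where 0.245% of all compared genes were, and 0 of 10 lower, where 0.96% were. The log2 differences between the times ranged from -0.25 for Apob to 0.47 for Apoa4, with a median of 0.035 beside -0.051 over all compared genes. In the OGT-KO-labelled libraries, 1 of 10 genes was called higher, beside a background of 1.04%, and 0 of 10 lower, beside 0.435%. That gene was Apom, which was 2.97-fold higher after 7 days (2.72 to 3.25, log2 difference 1.54), above 99.7% of the compared genes, while in the control libraries it differed by -0.10. The other 9 genes lay between -0.34 for Apoa4 and 0.13 for Apob in the OGT-KO-labelled libraries. For Apoa1 the log2 difference between the times was 0.32 in the control libraries and -0.041 in those labelled OGT-KO, and for Apoa5 it was 0.35 and -0.26. These comparisons share their libraries with the comparisons between the labels, and no difference between them was tested. The hepatocyte markers summed to 1.15-fold more after 7 days in the control libraries and 1.17-fold more in those labelled OGT-KO, and their part in these values was not tested.

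The remaining apolipoprotein genes were compared in the same way. Of 17 listed, 14 were in the table and 10 passed the filter, of which 4 were 2-fold lower and 1 was 2-fold higher at each time, beside all-gene shares of 5.69% and 4.27% lower and 24.4% and 22.9% higher. The medians were -0.90 and -0.54. Under median-ratio scaling 8 and 6 of the 10 were lower and 0 higher (medians -1.61 and -1.22). The all-gene shares under that scaling were 15.4% and 11.8% lower and 10.4% and 11.6% higher. Under hepatocyte-marker scaling 3 were lower and 1 higher at each time (medians -0.50 and -0.019). The all-gene shares there were 3.68% and 1.95% lower and 44.8% and 48.9% higher. Saa1 and Saa2, acute-phase apolipoproteins of HDL, were at 357.5 and 497.5 CPM and at 157.5 and 425 CPM in the control libraries and at 23.8 and 28.1 CPM and at 11.3 and 18.1 CPM in those labelled OGT-KO. Saa1 and Saa2 are close copies whose reads the counting could split, so each is uncertain alone. Saa4, the constitutive member of that family, was lower by log2 differences of -1.85 and -2.33. Clu, which encodes the apolipoprotein J, was higher at 5276 and 5869 CPM against 2013 and 2099.9 CPM in the control libraries (log2 differences 1.39 and 1.48), and under median-ratio scaling it stayed above 0 but under 2-fold (0.67 and 0.80).

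The partners of the apolipoproteins were compared by role. On the deposited scale their counts stand beside the same all-gene shares (24.4% and 22.9% higher, 5.69% and 4.27% lower). Under median-ratio scaling those shares were 10.4% and 11.6% higher and 15.4% and 11.8% lower. Under hepatocyte-marker scaling they were 44.8% and 48.9% higher and 3.68% and 1.95% lower. Of 12 genes of VLDL assembly and apoB editing, 1 was 2-fold higher with no recovery and 2 after 7 days, and 0 were lower, with medians of 0.24 and 0.42. Median-ratio scaling gave 0 higher and 2 lower at both times (medians -0.48 and -0.25), and hepatocyte-marker scaling 4 and 5 higher and 0 lower. Tm6sf2, needed for lipid loading of VLDL, was measured at 21.5 and 23.5 CPM in the control libraries and 44.9 and 67.0 CPM in the others. Of 10 genes of HDL formation and remodelling, 9 passed the filter, with 2 higher and 1 lower with no recovery and 1 higher and 1 lower after 7 days, and medians of -0.035 and 0.056 (-0.75 and -0.63 under median-ratio scaling, which called 4 and 2 lower). Pon1, the esterase that travels on HDL, was measured at 466 and 490 CPM in the control libraries and 122.5 and 123 CPM in those labelled OGT-KO, log2 differences of -1.92 and -1.98. Abcg1, a cholesterol exporter that macrophages express, was higher by 2.00 and 2.49.

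Of 7 genes of triglyceride lipolysis, 2 were higher and 0 lower with no recovery, and 1 was higher and 1 lower after 7 days, with medians of -0.53 and -0.71. Under median-ratio scaling 4 and 5 of the 7 were lower and 1 was higher (medians -1.25 and -1.39), beside all-gene shares of 15.4% and 11.8% lower. Under hepatocyte-marker scaling 2 were higher and 0 lower at both times, beside all-gene shares of 44.8% and 48.9% higher. Lpl, lipoprotein lipase, which adult hepatocytes hardly make, was measured at 42.9 and 29.9 CPM in the control libraries and 252 and 322 CPM in those labelled OGT-KO (log2 differences 2.53 and 3.39). Of 9 lipoprotein receptor genes reported here, 7 passed the filter and 2 were called higher at both times, a share near the all-gene shares of 24.4% and 22.9%, with medians of 0.47 and 0.68. Median-ratio scaling called 0 higher at both times (medians -0.24 and 0.011), beside all-gene shares of 10.4% and 11.6%. Hepatocyte-marker scaling called 3 and 5 higher, beside all-gene shares of 44.8% and 48.9%. Sdc1, a heparan sulfate receptor for remnants, and the scavenger receptor Stab1 were higher, by log2 differences of 1.12 and 1.48 and of 1.01 and 1.09, which fell below 2-fold under median-ratio scaling.

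Of 16 transcriptional regulators known to act on apolipoprotein genes, 0 were 2-fold higher at either time, 3 were lower with no recovery and 1 after 7 days, where 5.69% and 4.27% of all compared genes were lower. The medians were -0.36 and -0.50. Under median-ratio scaling 10 and 9 of the 16 were lower and 0 higher (medians -1.07 and -1.18), beside all-gene shares of 15.4% and 11.8% lower. Under hepatocyte-marker scaling 1 and 0 were lower and 2 higher, and the medians turned to 0.051 and 0.018. The all-gene shares there were 3.68% and 1.95% lower and 44.8% and 48.9% higher. The genes called lower on the deposited scale are named here after their values were seen. They were Hnf4a, Nr0b2 and Ppara with no recovery and Cebpa after 7 days. By the counts above, not all of them stayed lower under hepatocyte-marker scaling. Hnf4a, the nuclear receptor of hepatocyte identity, was measured at 851 and 864 CPM in the control libraries and 335 and 458 CPM in those labelled OGT-KO (log2 differences -1.34 and -0.91). Creb3l3, a liver factor known to drive Apoa4 and also chosen after its values were seen, was measured at 344 and 302 CPM against 300.5 and 301.5 CPM (log2 differences -0.20 and -0.0029).

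**Figure D5:**
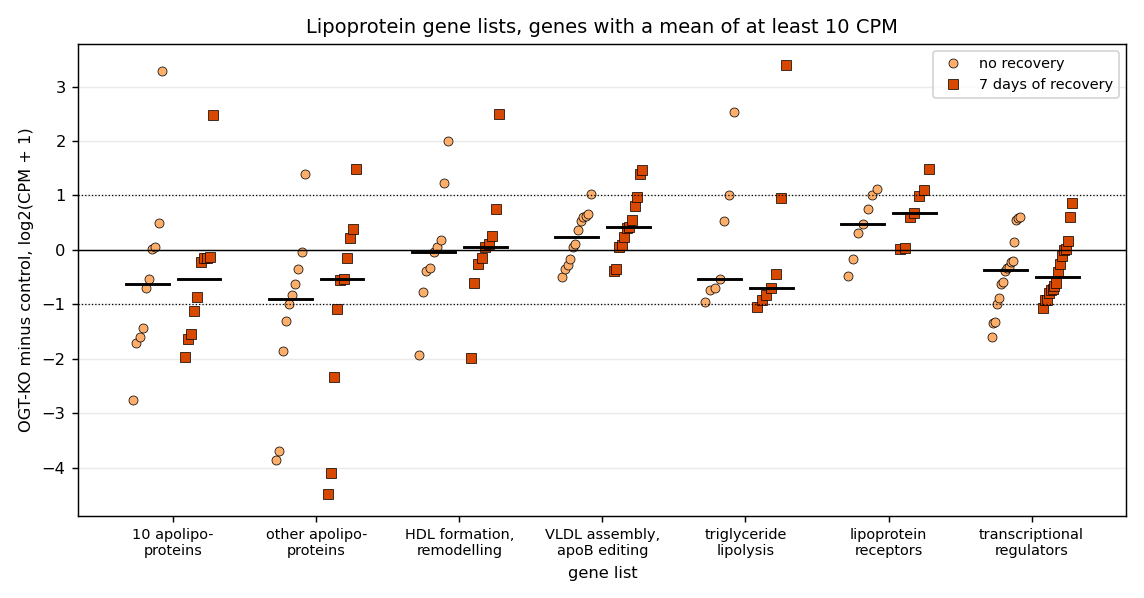
OGT-KO minus control difference in log2(CPM + 1) for every gene of 7 lipoprotein gene lists that averaged 10 CPM or more, on the deposited scale, with no recovery (circles) and after 7 days (squares). Thick bars are medians and dotted lines mark 2-fold, and the 10 apolipoproteins have medians of -0.62 and -0.54.

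The genes whose levels followed a member most closely were sought among 3219 genes averaging 50 CPM or more, as the distance between centred log2(CPM + 1) values over the 4 libraries. Nearest to Apoa4 were Rhpn2 (distance 0.32), Pgd (0.34) and Tmem43 (0.36), and Pgd, an enzyme of the pentose phosphate pathway, was measured at 46.3 and 47.0 CPM in the control libraries and 382 and 285 CPM in those labelled OGT-KO. Nearest to Apom were Mdh1 (0.24), Afm (0.27) and Keg1 (0.36). Afm, which encodes the vitamin E-binding plasma protein afamin, was measured at 169 and 183 CPM in the control libraries and 25.3 and 91.8 CPM in the others. Nearest to Apoc3 were Pgrmc2 (0.021), Aup1 (0.037) and Dnaja3 (0.037). With 4 libraries such likeness is a description of these values.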

How the data were processed

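The authors deposited CPM values, reads per gene divided by the library total and multiplied by 1000000, of 13903 genes in 4 liver libraries. The submitters' processing notes name STAR, DESeq2 and GRCm39, without roles, and the filter behind the table is not given in the sources used here. In each library 100.0% of the values were whole multiples of the value of 1 read (tolerance 0.01 reads), so whole reads were recovered, 21257763 and 22866431 in the control and OGT-KO-labelled libraries with no recovery and 19972699 and 22567395 after 7 days. The columns of no sample numbered 0. Differences of log2(CPM + 1) were taken for the 8963 genes with a mean of 10 CPM or more (low genes change by less on this scale than in CPM), and a gene was called at 2-fold. No p-value was computed for the conditions, since each group is 1 pooled library. The binomial test named below compares the reads of libraries only. Exact Clopper-Pearson intervals (95%) of levels, shares and ratios cover counting error only. Gene models and lengths are from GENCODE M21 (GRCm38), where 13893 gene identifiers matched, and promoter windows from RefSeq (GRCm38.p6), which held windows for 8 of the 10 genes.

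The 10 genes and the gene lists were chosen with earlier results of these data known. One gene of the receptor list is not reported here, and that list's counts leave it out. Named genes are the 10 members, Ogt, cluster neighbours, and at most 4 genes of each list with the largest mean difference among those called the same way at both times, with exceptions stated. The 3 nearest genes are given for the members with the largest rise, the largest fall and the smallest mean difference. The designs left the unit open between counts and normalized values and were run on CPM. Alternatives were pseudocounts of 0.1 and 10, filtering at 50 CPM or not at all, scaling by the upper quartile, the median ratio, the hepatocyte markers or totals without the 100 highest genes, and thresholds of 1.5-fold and 4-fold. An exact binomial test of recovered reads with Benjamini-Hochberg adjustment was added after seeing the data. Steps were tested on simulated reads. Python 3.11 was used with numpy 2.4.6, pandas 2.3.3 and scipy 1.17.1.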

Additional observations from a re-analysis of the deposited data

Results flagged for a closer look

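Several genes differed in one direction in one pair of libraries and in the other direction in the matching pair, and none of these differences was tested, since each value rests on 1 library. Over the 7 days of recovery, Apoa1, Apoa4, Apoa5, Apoc1 and Apoe were above their level with no recovery in the control libraries and below it in the OGT-KO-labelled libraries, with differences of the log2 changes of -0.36, -0.81, -0.61, -0.16 and -0.23. Apob did the reverse (0.38), as did Apom, which was slightly lower in the control libraries and 1.54 higher in those labelled OGT-KO (difference 1.64, which lay above 99.7% of the compared genes). The opposed signs over recovery were lost for Apoa1 under median-ratio scaling (0.032 in the OGT-KO-labelled libraries) and for Apoc1 and Apoe under hepatocyte-marker scaling (-0.13 for each in the control libraries). Between the labels, Apoa5, Apoc3 and Apoe were higher in the OGT-KO-labelled library with no recovery and lower after 7 days, with differences of -0.61, -0.20 and -0.23. These reversals between the labels hold on the deposited scale and not under median-ratio scaling, where both times were below 0 (Apoa5 -0.23 and -0.81, Apoc3 -0.67 and -0.84, Apoe -0.71 and -0.90), or under hepatocyte-marker scaling, where both were above 0 (0.90 and 0.40, 0.46 and 0.37, 0.43 and 0.31). With totals without the 100 highest genes Apoa5 kept its opposed signs (0.26 and -0.39), and barely so under upper-quartile scaling (0.0064 and -0.61). Apoc3 and Apoe were below 0 at both times under both of these scalings. For Apoa1, Apoc1, Apoc3 and Apoe at least one of the deposited-scale values behind these differences was within 0.05 of 0 on the log2 scale.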

How the results depend on the processing

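No paired analysis was possible because each group is 1 library and the labels give no replicate numbers. The 5 genes called between the labels kept their sign under all alternatives. The median of the 10 genes on the OGT-KO minus control log2 scale was -1.10 and -1.03 (no recovery and 7 days) under upper-quartile scaling, -1.34 and -1.23 under median-ratio scaling, -0.84 and -0.81 with totals without the 100 highest genes and -0.21 and -0.017 under hepatocyte-marker scaling, and without Apoe it was -0.86 after 7 days. Hepatocyte-marker scaling also moved the control recovery median to -0.13. At 4-fold, 1 gene was lower with no recovery and 0 after 7 days, and 0 were higher over recovery in the OGT-KO-labelled libraries. Of 320 values of single genes recomputed, 22 changed sign, none of them a called value. Over all compared genes, 2185 were called higher and 510 lower with no recovery (median-ratio scaling 935 and 1381, upper-quartile scaling 1208 and 981, hepatocyte-marker scaling 4016 and 330), and 2050 and 383 after 7 days (1038 and 1055, 1215 and 740, 4379 and 175). The exact binomial test, chosen after seeing the data, called 8016 and 7904 of 8963 genes between the labels and 3557 and 5065 over recovery, including all 10 members between the labels at both times. It compares these libraries and not the conditions. Which scaling fits these livers cannot be told from 1 library per group.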
